A study of Ovis aries with 6 samples.

Results

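The milk protein genes CSN1S2, CSN2, CSN3, LALBA and PAEP were followed in skin of Aohan fine wool sheep, a breed kept for wool, taken through its full thickness. Their probes were all non-control probes of the array whose identifier is a sheep RefSeq mRNA of one of these genes, which gave 8 probes among 15008, or among the 734 that could be given the symbol of one of 476 genes. CSN1S2, CSN2 and LALBA had 2 probes each, CSN3 had 1 probe printed as 5 spots, and PAEP had 1. The body side, which bears wool, and the groin, which does not, were each sampled in 3 paternal half-sibs (1 ram, 2 ewes) aged 12 months, with no treatment. Each of the 6 samples was hybridised to its own single-colour (Cy3) Agilent array. The labels do not say whether an ewe was pregnant or lactating, nor whether udder tissue lay under the sampled groin skin.

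Milk protein is made in the secretory epithelium of the mammary gland under the control of prolactin, glucocorticoid and insulin, with the factor STAT5 acting on the promoters. The calcium-sensitive caseins, among them αS2-casein (CSN1S2) and β-casein (CSN2), bind calcium phosphate, and κ-casein (CSN3) sits on the surface of the casein micelle and keeps it in suspension. α-Lactalbumin (LALBA), a relative of lysozyme, is the regulatory subunit of lactose synthase, and β-lactoglobulin (PAEP, also listed as BLG) is a lipocalin of ruminant whey. The mammary gland is itself a skin gland, and in sheep it lies in the groin. In the gene table used for naming, the casein genes are neighbours on one chromosome in the order CSN1S1, CSN2, CSN1S2 and CSN3.

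The arrays differed in brightness by site. The 75th percentile of the processed signal lay between 1103 and 2048 on the body side arrays and between 3677 and 4401 on the groin arrays, a log2 difference of -1.57 for body side minus groin. The arrays of each site formed a scan of their own, so no difference given here can tell scan from site: the 2 cannot be told apart. Levels are therefore given as the processed signal as read, and as log2 of that signal less its array's 75th percentile, called the scaled level. Between 10730 and 13384 probes were well above background (the scanner software's flag) on the body side arrays and between 13523 and 14053 on the groin arrays. Since skin was taken whole, fewer cells of a type and less RNA per cell cannot be told apart. Skin identity itself rests on wool follicle genes, since no epidermal marker of the list had a named probe.

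No milk protein probe was called higher in the groin after scaling. On the scaled levels, 3 of the 7 tested milk protein probes were higher on the body side, none was lower, and 4 did not pass (limma, adjusted p under 0.05). The 3 were the dimmer CSN2 probe (37.4-fold, with 1 of 3 groin arrays not well above background), the CSN3 probe (2.60-fold) and the dimmer LALBA probe (2.28-fold). Over all 13278 tested probes, 69.9% were called, 37.0% as higher and 32.8% as lower on the body side, so 3 higher calls among 7 are close to the share called higher over the whole array. Scaled levels did not overlap between sites for these 3 probes, and for 74.8% of all tested probes. The median log2 difference was 0.67 over the 7 probes and 0.10 over all tested probes. All 7 differences were above 0 with the scaled levels, but 6 of them were below 0 without scaling between arrays. In that fit, 1 probe was called higher, the dimmer CSN2 probe, and 3 were called lower, the brighter CSN2 probe, the brighter LALBA probe and PAEP, where 1.43% of all tested probes were called higher and 70.9% lower.

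**Figure D1:**
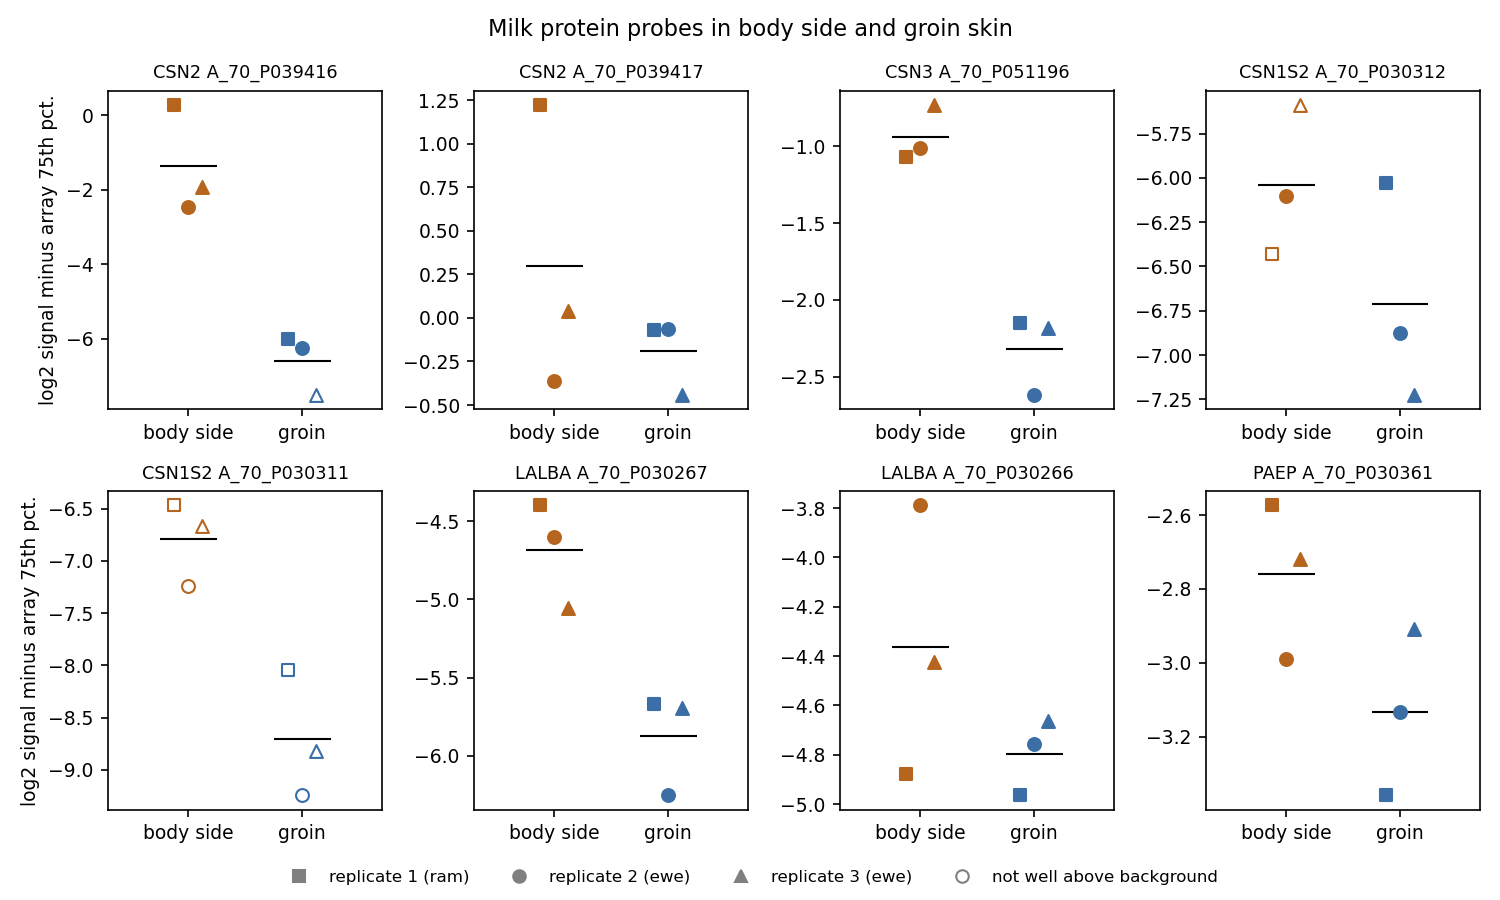
Scaled level (log2 processed signal, less the array's 75th percentile) of the 8 milk protein probes on 3 body side and 3 groin arrays. Points are arrays, lines are site means, open points were not well above background, and each panel has its own vertical axis. The dimmer CSN2 probe, the CSN3 probe and the dimmer LALBA probe do not overlap between sites. Nor does the dimmer CSN1S2 probe, which was not well above background on any array.

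β-Casein gave the widest gap of the set, on one of its probes. Probe A_70_P039416 of CSN2 (NM_001009373) had a processed signal of 1341, 370.4 and 300.2 on body side arrays 1, 2 and 3, against 57.0, 54.6 and 24.3 on groin arrays 1, 2 and 3. Every body side array was thus above every groin array before any scaling, although the body side arrays were dimmer as a whole. The scaled levels were -1.37 ± 1.45 for the body side and -6.59 ± 0.80 for the groin (SD, n = 3 each), a log2 difference of 5.22 ± 0.68 SE with a 95% interval from 3.66 to 6.79 (limma adjusted p = 0.000293). It was well above background on all 3 body side arrays and on 2 of 3 groin arrays, so it entered the test through the site where it was high.

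Without scaling, the same CSN2 probe was 12.5-fold higher on the body side (log2 difference 3.65 ± 0.56 SE, limma adjusted p = 0.000223). Its scaled difference ranked 1 among the 650 tested probes with a gene symbol, ahead of the wool fibre gene KRTAP5.4, and it ranked 6 among all 13278. The rank was also 1 with quantile normalization, cyclic loess and the deposited log2 values, while with normexp background correction it was 7 and the difference was 3.44. On body side array 1, which is the ram's, the median pixel signal of the spot was 606.5 against the processed signal of 1341, a wider gap than on the other 2 body side arrays. From median spot signal minus local background the difference was 4.27 ± 0.44 SE. With the scaled processed signal and without body side array 1, it was 4.40.

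The brighter CSN2 probe did not show this gap. Probe A_70_P039417 read 2572, 1592 and 1162 on body side arrays 1, 2 and 3, against 3506, 3984 and 3242 on groin arrays 1, 2 and 3. The signals as read were thus lower on every body side array, while the scaled levels overlapped, at 0.30 ± 0.82 for body side skin and -0.19 ± 0.22 for groin skin (SD, n = 3 each). The scaled difference of 0.49 ± 0.37 SE did not pass (limma adjusted p = 0.265), and its 95% interval ran from -0.36 to 1.35. Without scaling it was -1.08 and past the threshold (limma adjusted p = 0.015).

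The disagreement of the CSN2 probes does not depend on how arrays are scaled, since it can be read within each array. The log2 ratio of A_70_P039416 over A_70_P039417 was -0.94, -2.10 and -1.95 on body side arrays 1, 2 and 3, against -5.94, -6.19 and -7.06 on groin arrays 1, 2 and 3. The sites did not overlap, and the mean ratio differed by 4.73 on the log2 scale, or 26.6-fold (two-sided exact permutation p = 0.1, which 3 arrays a site cannot go below). The size of that gap depends on background handling, and the dimmer probe was dim in the groin. Its groin spots were between 1.82 and 2.21 times as bright as the local background. With normexp, the site difference was 3.44 for the dimmer probe and 0.41 for the brighter one. From median spot signals it was 4.27 and 0.42. Both probes are listed under the same mRNA of CSN2. Which of them follows that mRNA was not tested, since probe sequences were not used here.

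**Figure D2:**
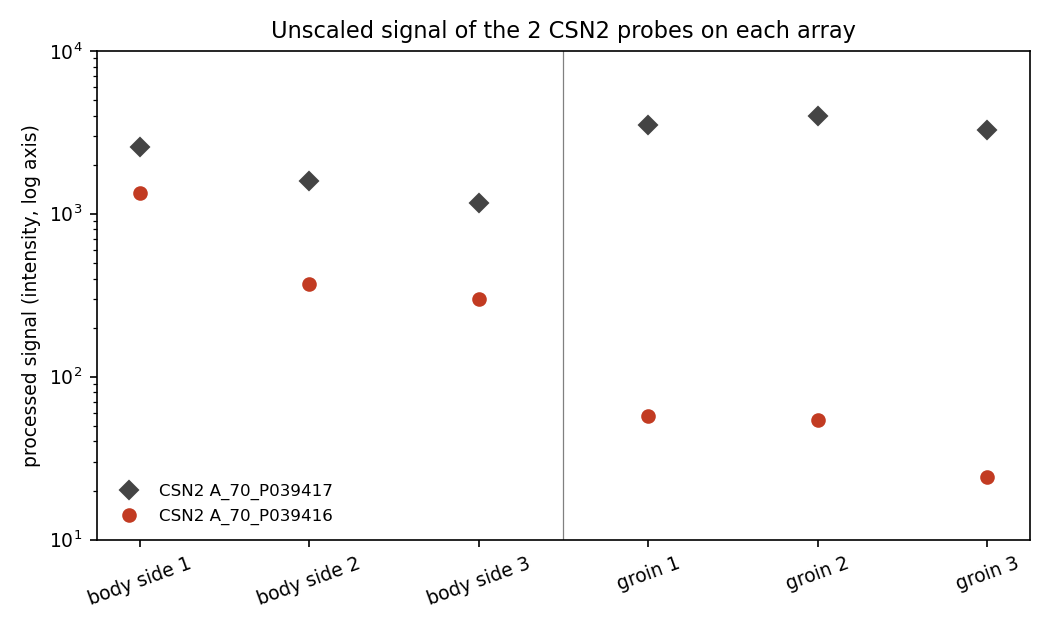
Unscaled processed signal (log axis) of the 2 CSN2 probes on each array, body side left of groin. The brighter probe, A_70_P039417, stays between 1162 and 3984, and the dimmer one, A_70_P039416, lies between 300.2 and 1341 on the body side arrays and between 24.3 and 57.0 on the groin arrays.

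κ-Casein was higher on the body side after scaling. The CSN3 probe A_70_P051196 (NM_001009378) read 525.6, 1016 and 680.5 on body side arrays 1, 2 and 3, against 827.0, 680.0 and 968.8 on groin arrays 1, 2 and 3, as means over its usable spots. As read, the sites overlapped. The scaled levels did not, at -1.07, -1.01 and -0.73 on body side arrays 1, 2 and 3, against -2.15, -2.62 and -2.18 on groin arrays 1, 2 and 3. They averaged -0.94 ± 0.18 for the body side and -2.32 ± 0.26 for the groin (SD, n = 3 each), a log2 difference of 1.38 ± 0.20 SE with a 95% interval from 0.93 to 1.83 (limma adjusted p = 0.000424). Without scaling the difference was -0.19 and did not pass (limma adjusted p = 0.604), so the call rests on the unequal brightness of the arrays being set level.

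The 5 spots of the CSN3 probe give a view of the error within an array. Spot 1 carried an outlier flag on body side arrays 2 and 3 and on groin array 3, and was left out there. Its scaled level was -2.00, -3.10 and -2.46 on body side arrays 1, 2 and 3, against -2.08, -3.09 and -3.78 on groin arrays 1, 2 and 3. Spots 2, 3 and 4 stayed between -1.09 and -0.44 on the body side arrays and between -2.31 and -1.98 on the groin arrays. Spot 5 fell in with them except on body side array 1, at -1.49, and on groin array 2, at -3.67. Each spot was also fitted alone, with flagged values kept. The log2 difference was 1.38, 1.24, 1.40 and 1.68 for spots 2 to 5, all past the threshold. It was 0.46 for spot 1, which did not pass (limma adjusted p = 0.364). With all spots kept, the mean SD over its spots within an array was 0.651 for CSN3, rank 4 among the 50 probes with 5 spots, whose median was 0.195. Without the spots that carry a flag, that SD was 0.66, 0.061 and 0.089 on body side arrays 1, 2 and 3, against 0.081, 0.74 and 0.066 on groin arrays 1, 2 and 3.

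**Figure D3:**
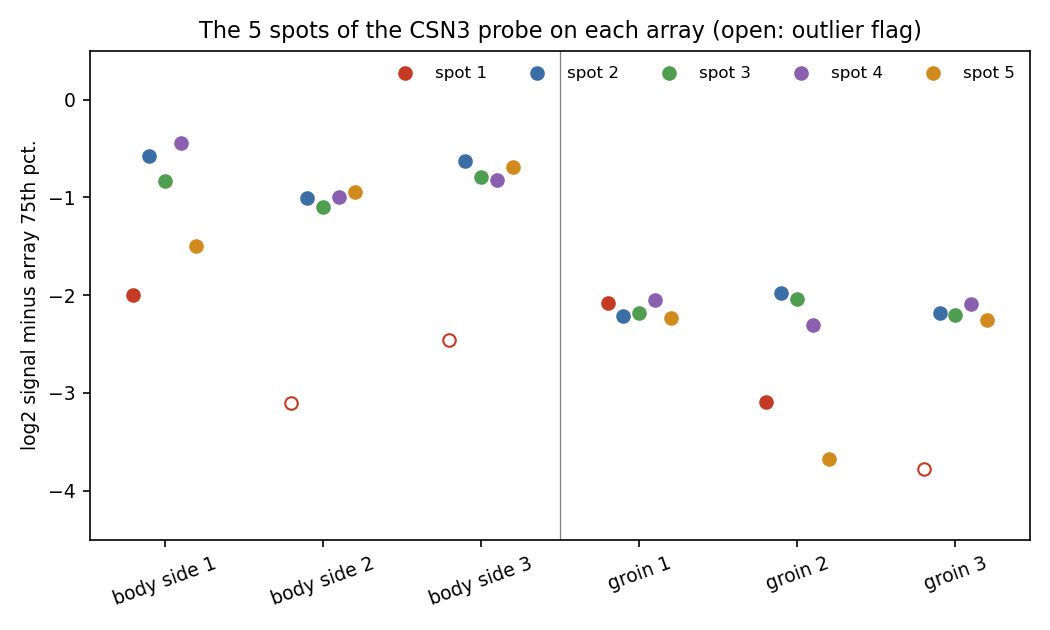
Scaled level of each of the 5 spots of the CSN3 probe on each array, body side left of groin. Open points carry an outlier flag; spots 2, 3 and 4 stay at or above -1.09 on the body side and at or below -1.98 in the groin, and spot 1 overlaps between sites.

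αS2-Casein was at the limit of detection. Probe A_70_P030312 of CSN1S2 (NM_001009363) read 12.8, 29.8 and 23.5 on body side arrays 1, 2 and 3, against 56.4, 35.5 and 29.4 on groin arrays 1, 2 and 3. It was well above background on 1 of 3 body side arrays and on 3 of 3 groin arrays, and its spots were between 1.60 and 2.66 times as bright as the local background. Its scaled difference of 0.67 ± 0.34 SE did not pass (limma adjusted p = 0.106), with a 95% interval from -0.10 to 1.44, and it was -0.91 without scaling. Without replicate 1, the ram, it was 1.21 and passed (limma adjusted p = 0.00276). The other CSN1S2 probe, A_70_P030311, was well above background on no array, read between 6.88 and 14.0 over all 6, and was not tested. Its scaled levels still did not overlap between sites, with means of -6.79 for the body side and -8.70 for the groin. The difference was 1.91, and 0.33 without scaling. With no filter on dim probes it was called higher (limma adjusted p = 0.00287). A scaled gap thus arose on a probe that no array detected, which limits the scaled differences of other dim probes.

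The neighbouring casein gene CSN1S1, which encodes αS1-casein and is no member of the set, had 1 probe, well above background on 1 body side and 1 groin array. Its processed signal was 11.0, 26.3 and 14.4 on body side arrays 1, 2 and 3, against 8.04, 7.95 and 28.1 on groin arrays 1, 2 and 3, and it was not tested. Of the probes of these 4 casein genes, only the CSN3 probe and the brighter CSN2 probe were well above background on every array. The dimmer CSN2 probe was so on 3 body side and 2 groin arrays, and the brighter CSN1S2 probe on 1 and 3. CSN1S1 and both CSN1S2 probes were dim throughout, as was the dimmer CSN2 probe in the groin.

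Both α-lactalbumin probes were read well above background on all 6 arrays, though dimly. The dimmer one, A_70_P030267 of LALBA (NM_001009797), read 52.2, 84.4 and 34.0 on body side arrays 1, 2 and 3, against 72.3, 54.7 and 85.1 on groin arrays 1, 2 and 3. These signals overlapped between sites. The scaled levels did not, at -4.40, -4.60 and -5.05 on body side arrays 1, 2 and 3, against -5.67, -6.25 and -5.69 on groin arrays 1, 2 and 3. They averaged -4.69 ± 0.34 for body side skin and -5.87 ± 0.33 for groin skin (SD, n = 3 each), with a difference of 1.19 ± 0.24 SE (limma adjusted p = 0.00244). The difference was -0.39 without scaling and did not pass (limma adjusted p = 0.362). The spots of this LALBA probe were between 2.33 and 3.12 times as bright as the local background. The CSN1S2 probe that no array detected had a wider scaled difference, at 1.91.

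The brighter LALBA probe, A_70_P030266, read 37.5, 148.2 and 52.7 on body side arrays 1, 2 and 3, against 117.8, 154.3 and 173.6 on groin arrays 1, 2 and 3. Its scaled levels overlapped, at -4.36 ± 0.55 for body side skin and -4.79 ± 0.15 for groin skin (SD, n = 3 each), and the difference of 0.43 ± 0.27 SE did not pass (limma adjusted p = 0.186). Without body side array 1, the ram's, it was 0.69 and passed (limma adjusted p = 0.0227). It also passed as higher with normexp (0.93), median centring (0.89), cyclic loess (0.69) and median spot signals (0.70), and as lower without scaling (-1.14, limma adjusted p = 0.0474). The within-array log2 ratio of the dimmer over the brighter LALBA probe averaged -0.32 ± 0.70 for body side skin and -1.08 ± 0.40 for groin skin (SD, n = 3 each), which overlapped (exact permutation test, two-sided p = 0.2). The sites thus overlapped in the ratio of the LALBA probes and not in that of the CSN2 probes.

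Lysozyme (LYZ), the relative of α-lactalbumin that cleaves bacterial cell walls and is also secreted into milk, had a bright probe that read 221.6, 1261 and 395.9 on body side arrays 1, 2 and 3, against 2078, 3078 and 2877 on groin arrays 1, 2 and 3. Its scaled difference of -0.88 ± 0.37 SE did not pass (limma adjusted p = 0.0574). It passed as lower with normexp (-0.83, limma adjusted p = 0.0272), without scaling (-2.46, limma adjusted p = 0.00214) and with the filter on all 6 arrays (limma adjusted p = 0.0292). The other LYZ probe gave -0.80 and did not pass.

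β-Lactoglobulin did not pass the test between sites after scaling. The PAEP probe A_70_P030361 (NM_001009366) read 185.2, 258.1 and 171.6 on body side arrays 1, 2 and 3, against 358.6, 475.9 and 585.9 on groin arrays 1, 2 and 3. As read, every body side array was below every groin array, as were the arrays as a whole. The scaled levels overlapped, at -2.76 ± 0.21 for body side skin and -3.13 ± 0.22 for groin skin (SD, n = 3 each), with a difference of 0.37 ± 0.19 SE and a 95% interval from -0.07 to 0.81 (limma adjusted p = 0.116). The call of PAEP depended on the scaling: it passed as higher in 5 of the other scalings or background settings, at 0.64 with normexp, 0.80 with quantile normalization, 0.83 with median centring, 0.73 with cyclic loess and 0.79 with the deposited log2 values, and as lower without scaling, at -1.20 (limma adjusted p = 0.00576).

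Since scaling moved the whole array, the differences were also set against the median of all tested probes, which was 0.10 as reported, 0.46 with normexp, 0.56 with median centring and -1.47 without scaling. Relative to that median, the reported scaling, median centring and no scaling give the same value by construction, so that 5 of the 7 settings differ. The dimmer CSN2 probe lay between 2.98 and 5.53 higher over these 5. CSN3 lay between 1.00 and 1.76 higher, and the dimmer LALBA probe between 0.93 and 1.29 higher. PAEP lay between 0.18 and 0.74 higher, the brighter LALBA probe between 0.33 and 0.70, and CSN1S2 between 0.36 and 0.71. The brighter CSN2 probe lay between -0.05 (normexp) and 0.44, and was above the median in the other 4. The CSN1S2 probe that no array detected differed by 0.33 without scaling, so it too lay above that setting's median. For a dim probe, lying above the median therefore cannot tell a site difference from a signal near background.

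**Figure D4:**
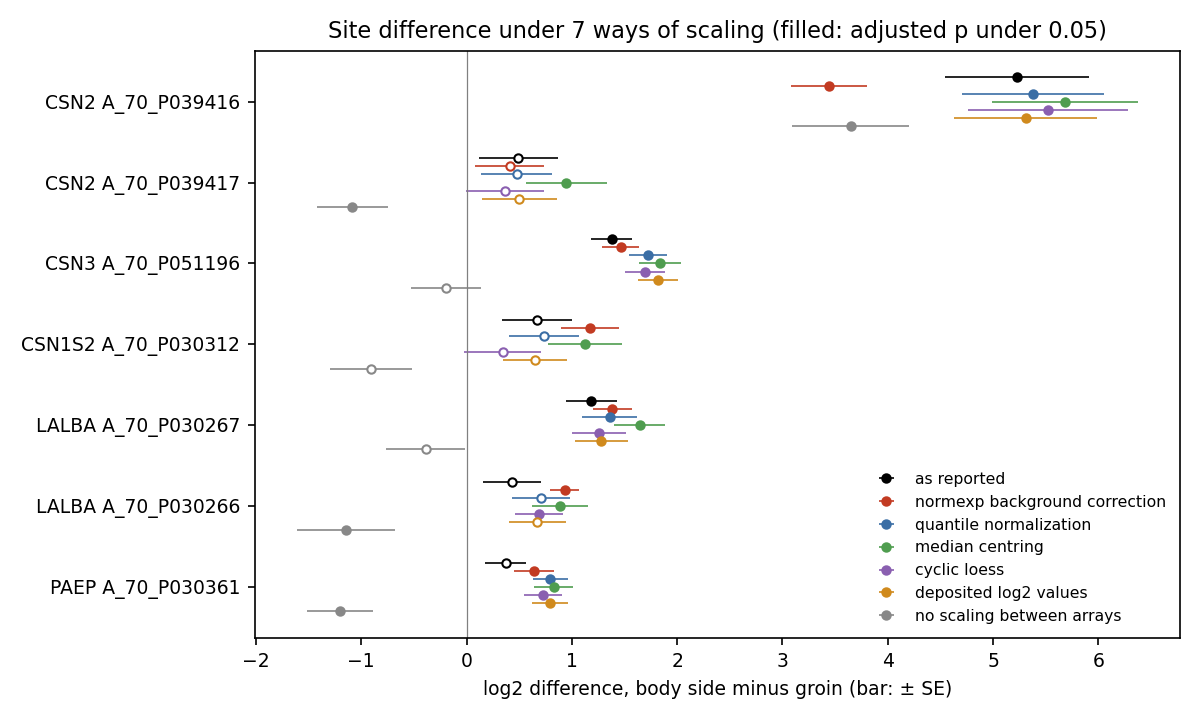
Log2 difference (body side minus groin) of the 7 tested milk protein probes under 7 ways of scaling or background correction, with bars of ± 1 SE. Filled points passed an adjusted p of 0.05. The dimmer CSN2 probe is above 0 in all 7, and the other 6 probes are below 0 without scaling.

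**Figure D5:**
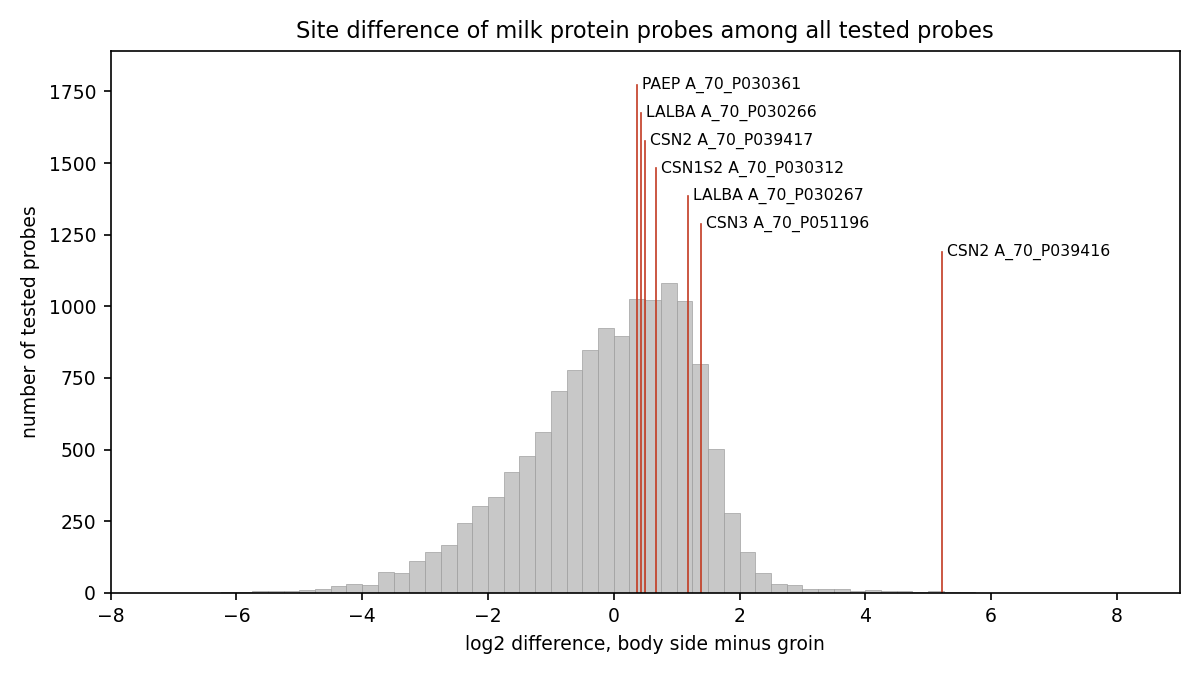
Number of tested probes by log2 difference (body side minus groin), in bins of 0.25, with red lines at the 7 tested milk protein probes. Of these, 6 lie between 0.37 and 1.38, in the bulk of the 13278 probes, and the dimmer CSN2 probe lies at 5.22.

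The ram and the ewes could be set side by side at both sites. The dimmer CSN2 probe had its highest scaled level on the ram's body side array, at 0.28, against -2.47 and -1.91 on the ewes' body side arrays. In the groin the ram was at -6.01 and the ewes at -6.26 and -7.50. For ewes minus ram, with site as a term, the difference was -1.67 ± 0.43 SE and did not pass (limma adjusted p = 0.522). The brighter CSN2 probe was also highest on the ram's body side array, at 1.22, against -0.36 and 0.04 on those of the ewes, and its difference for ewes minus ram was -0.78 ± 0.29 SE (limma adjusted p = 0.526).

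None of the 7 milk protein probes passed for sex, and no probe of the 13278 did (0%), while 1173 had an unadjusted p under 0.05 in limma. Over these probes the difference for ewes minus ram ran from -1.67 for the dimmer CSN2 probe to 0.51 for the brighter LALBA probe. The change between sites was compared between the sexes as well, and its interaction with sex passed for none of the 7 probes, against 0.106% of all probes. The ram's own body side minus groin difference, the one pair known to come from one animal, was 6.29 for the dimmer CSN2 probe, 1.29 for the brighter one, 1.08 for CSN3, 1.27 and 0.08 for the dimmer and the brighter LALBA probe, 0.78 for PAEP and -0.41 for CSN1S2. The ram is 1 animal, whose 2 arrays stand for all males in these fits, so they cannot tell sex from animal and the lack of calls says nothing about sex.

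Genes of lactation beyond the milk proteins were read from 3 lists, beside the 37.0% of all tested probes called higher and the 32.8% called lower. Of 19 further milk and mammary secretory proteins, 7 had a named probe and 6 were tested; 1 was higher on the body side, none was lower and 5 did not pass. The higher one was FCGRT, the receptor that carries immunoglobulin G across epithelia, at 4.40 ± 0.43 for body side skin and 3.48 ± 0.01 for groin skin (SD, n = 3 each), with a difference of 0.92 ± 0.23 SE (limma adjusted p = 0.0068). Its sign turned with quantile normalization, at -0.19. The median over the 6 was -0.14, against 0.10 over all tested probes. Lactoferrin (LTF), an iron-binding protein of milk and of neutrophils, did not pass, at 0.11 ± 0.22 SE.

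Among hormones, receptors and signalling genes of lactation, 10 of 29 had a named probe and 8 were tested, of which 4 were higher, 3 were lower and 1 did not pass, near the shares over all probes. Prolactin (PRL), the hormone that induces casein synthesis, was higher on the body side, at -2.91 ± 0.38 against -4.67 ± 0.49 in the groin (SD, n = 3 each), a difference of 1.76 ± 0.29 SE (limma adjusted p = 0.000881). Its second probe was also called higher, at 1.43, and the difference was 0.18 and not past the threshold without scaling (limma adjusted p = 0.645). STAT5A, the factor that carries the prolactin signal to casein promoters, was lower on the body side by both of its probes, at -1.01 ± 0.19 SE (limma adjusted p = 0.00173) and -2.05.

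The remaining genes of that list were mostly receptors and hormones. The glucocorticoid receptor NR3C1 did not clear background on any body side array and was higher in the groin by at least 1.32-fold (measured means -7.48 for body side skin and -5.66 for groin skin, limma adjusted p = 0.000857), but its sign turned with normexp, at 0.48. The leptin receptor LEPR had the same pattern, higher in the groin by at least 3.44-fold (measured means -7.38 for body side skin and -4.27 for groin skin, limma adjusted p = 8.21e-05), a call that ended with normexp (-0.36, limma adjusted p = 0.264). Its other tested probes gave -2.31, called, and -0.67, not called. IGF1, ESR2 and OXT, named here after their values were seen, were the other 3 called higher on the body side, and GHR did not pass. The median over the 8 tested genes was 0.68. The receptor of oxytocin, OXTR, which triggers milk ejection, and growth hormone, GH, had 2 probes each, and none passed the filter on dim probes.

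Of 19 genes of milk fat and lactose synthesis, 7 were tested; 3 were higher on the body side, 3 were lower and 1 did not pass, with a median of 0.12, again near the shares over all probes. Of the genes counted as higher, DGAT1, which makes triglyceride, had another probe called lower (-0.83), and SLC2A3, a glucose transporter, had another probe that did not pass (-0.04). PLIN2, which coats lipid droplets and milk fat globules, was lower on the body side, at 1.14 ± 0.28 against 3.28 ± 0.14 in the groin (SD, n = 3 each), a difference of -2.13 ± 0.19 SE (limma adjusted p = 5.87e-05), and its other probe gave -2.14. SCD, which desaturates fatty acids, cleared background on none of the body side arrays and had measured means of -7.50 for body side skin and -1.42 for groin skin, so it was higher in the groin by at least 24.9-fold on the scaled levels (limma adjusted p = 4.19e-05). With normexp its log2 difference was -2.52, a smaller gap than that bound. ACACA, which commits acetyl-CoA to fatty acid synthesis, was higher on the body side, at 0.77 ± 0.18 SE. Without scaling its difference was -0.81 and did not pass (limma adjusted p = 0.0584). LPL, which releases fatty acids from lipoproteins, differed by -0.71 ± 0.18 SE, with 1 of 3 body side arrays well above background. That difference turned to 0.51 and did not pass with normexp. The call was also lost with quantile normalization (-0.52), median centring (-0.25) and the deposited values (-0.51). The other LPL probe was called lower as well, at -0.97.

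Markers of the cells that the skin could hold were read beside these results. None of the 10 markers of mammary and other glandular luminal epithelium had a named probe, so the presence of mammary tissue in the groin samples was not tested. Of the wool follicle markers, 8 of 11 had a probe, all 8 were above background on all 6 arrays and all 8 were higher on the body side. Their mean scaled level lay between 4.28 and 4.74 on the body side arrays and between 1.00 and 1.26 on the groin arrays. Of 8 sweat gland markers, 2 were tested and both were higher on the body side, AQP5 with another probe that did not pass (1.11) and CFTR well above background on 1 of 3 body side arrays, with a mean scaled level between -4.30 and -3.74 on body side arrays and between -5.91 and -4.99 in the groin. Of 3 tested markers each, skeletal muscle had 2 higher and 1 lower, dermal fibroblasts 1 higher and 2 lower, and adipocytes 1 higher and 1 lower; of 6 tested markers of neutrophils and macrophages, 1 was higher and 1 was lower. CSN3 and the dimmer CSN2 and LALBA probes were called in the same direction as all 8 follicle markers and both sweat gland markers. In that direction were also 2 of 3 muscle markers, and 1 marker each of fibroblasts, adipocytes and the neutrophil and macrophage list. Over all tested probes, 37.0% were called higher on the body side and 32.8% lower. The part of these cells in the milk protein differences was not tested.

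Of 7 sebaceous gland markers, 3 were tested, of which 2 were lower on the body side and none was higher, with a mean scaled level between -4.15 and -3.49 on the body side arrays and between -1.14 and -0.64 on the groin arrays. The 2 are SCD, not well above background on any body side array, and PLIN2, both also counted among the milk fat genes, and MC5R did not pass (-0.28).

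The genes whose scaled levels ran most like each milk protein were sought among 436 other genes with a symbol. The measure was the root mean square difference over the 6 arrays between values centred on each gene's own mean. For CSN3 the nearest were PAG6, a pregnancy-associated glycoprotein (0.096), H2AZ1, a histone variant (0.12), and PANK2, a kinase of coenzyme A synthesis (0.14), against a median of 0.66 over all genes. For PAEP the nearest was SLC39A3, at 0.057. For the brighter LALBA probe they were GJB2, FTO and SSTR5, at 0.18, 0.24 and 0.24. For the brighter CSN2 probe they were MSTN, HSD11B2 and PLIN1, at 0.28, 0.29 and 0.29, and for CSN1S2 they were CYP11A1, GNLY and MIF, at 0.23, 0.29 and 0.31.

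The dimmer CSN2 probe was searched in the same way after its values were seen. Its nearest genes were KRTAP5.4, KRT35 and K38, of the wool fibre, at 0.72, 0.81 and 1.24, against a median of 2.61 over all genes. Their site differences were 4.99, 4.72 and 3.40. For a probe with a wide site difference, this measure mostly follows the size of that difference. The search therefore cannot show a likeness to wool fibre genes beyond it. Among the milk protein probes themselves, the closest pair was CSN3 and the dimmer LALBA probe, at 0.32, while the 2 CSN2 probes were 2.42 apart.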

How the data were processed

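Per the labels' protocols, total RNA of each sample was linearly amplified with Cy3 and put on 1 array. The submitters' processing notes name Agilent Feature Extraction 10.5.1.1 as the program that read spot intensity. The processed signal, as deposited, is an intensity that per the file headers had undergone background subtraction and detrending, with no normalization between arrays. The authors also deposited log2 values with equal medians, whose method is not given in the sources used here.

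Samples were grouped by the site in their titles. Control spots and outlier-flagged spots (between 6 and 51 per array) were left out, no spot was saturated, and spots of a probe were averaged as log2. Scaled levels are log2 signal minus the array's 75th percentile. Probes entered the test if either site had all 3 of its arrays well above background and both sites had 2 or more values, which kept 13278 probes, 7 of the 8 milk protein probes among them. Site differences, body side minus groin, come from lmFit and eBayes of limma 3.58.1 (R 4.3.3) with Benjamini-Hochberg adjustment over all tested probes. The fit was tested on simulated data. The number of arrays limits the precision.

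Probes were named by RefSeq accession in a gene table of the assembly ARS-UI_Ramb_v3.0, which matched 734 of 15008. Listed genes are given by their brightest tested probe. The text names every milk protein probe, from each list of lactation genes up to 4 called genes by smallest adjusted p, and the 3 genes most like each milk protein (for PAEP only the nearest, since a result there is not reported here); FCGRT was the only called gene of its list, LTF, GHR, OXTR, GH, DGAT1, SLC2A3 and the marker genes AQP5, CFTR and MC5R were added after their values were seen, and other marker genes are counted only. A fold given as "at least" sets the brighter site's mean against the dimmer site's mean, each array there entering at the probe's own value or at its lowest value among probes well above background, whichever is higher. The members and lists were chosen with earlier results of these data known.

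The ram is replicate 1 at either site; the labels do not tie ewes 2 and 3 of one site to those of the other. Alternatives were other scalings and background corrections, filters, a variance trend, the replicate number as a block, leave-outs, and, added after seeing the data, CSN3 spots one by one and median spot signals.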

Additional observations from a re-analysis of the deposited data

How the results depend on the processing

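The call of the dimmer CSN2 probe and its direction held in the 19 alternatives that tested it (3.44 to 5.94); the filter on all 6 arrays dropped it, since 1 groin array was not well above background. The scaled calls of CSN3 and of the dimmer LALBA probe held in all except the fit without scaling and, for CSN3, the fit on spot 1 alone (0.46). Without scaling, the other 6 milk protein probes turned, and so did 2 list genes: CSN3 to -0.19, the brighter CSN2 probe to -1.08, CSN1S2 to -0.91, the dimmer and brighter LALBA probes to -0.39 and -1.14, PAEP to -1.20, ACACA to -0.81 and FCGRT to -0.65. By construction that setting leaves the arrays' unequal brightness in place; the cause of the other changes was not tested.

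Of the 7 milk protein probes tested, 3 were called as reported, 6 with normexp, 7 with median centring and 5 with cyclic loess, all as higher. With a filter on all 6 arrays 2 of 5 were, and without scaling 4 were, 1 of them as higher. Over all 13278 tested probes, 4918 were called higher as reported, 6533 with normexp, 6606 with median centring and 4286 with cyclic loess. The filter on all 6 arrays gave 4801 higher of 10579, and no scaling gave 190 higher and 9412 lower. Newly called was CSN1S2 with normexp (1.17) and median centring (1.13), though it was well above background on only 1 of 3 body side arrays. The brighter CSN2 probe was newly called with median centring (0.95). The brighter LALBA probe was with normexp (0.93), median centring (0.89), cyclic loess (0.69) and median spot signals (0.70). PAEP was with normexp (0.64), quantile normalization (0.80), median centring (0.83), cyclic loess (0.73), the deposited values (0.79) and median spot signals (0.55). The mean of a gene's probes was called for CSN2 (2.86) and LALBA (0.81), where the brightest probe was not, and for CSN1S2 (1.29), where it takes in the probe that no array detected and is not read as a call. FCGRT turned with quantile normalization (-0.19), cyclic loess (-0.19) and the deposited values (-0.18), NR3C1 with normexp (0.48) and LPL with normexp (0.51).

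Over 9 leave-outs, the count of called milk protein probes ran from 3 to 5, with 5 without body side replicate 1. The differences ran from 4.40 to 5.94 for the dimmer CSN2 probe, 0.03 to 0.89 for the brighter one, 1.23 to 1.53 for CSN3, 0.19 to 1.21 for CSN1S2, 0.95 to 1.46 and 0.14 to 0.69 for the dimmer and brighter LALBA probes, and 0.17 to 0.49 for PAEP; CSN1S2 also passed without body side replicate 1 (0.86) and groin replicate 1 (1.01), and PAEP without body side replicate 2 (0.49). The count over all probes stayed within 1.5 times the reported 9279 (6564 without replicate 3 to 9796 of 14986 tested with no filter). Higher calls made up 53% of all calls, 68.6% with normexp, 68.5% with median centring and 1.98% without scaling.

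With the replicate number as a block, the count of milk protein calls was 3 and the dimmer CSN2 probe differed by 5.22 (limma adjusted p = 4.95e-05). Deviations of same-numbered arrays correlated at 0.16, 0.09 and -0.09 for numbers 1, 2 and 3. The first is the ram, a known pair, so these values cannot tell pairs from other arrays. The shared numbers were not read as pairs because the labels do not tie the ewes across sites. The difference for ewes minus ram of PAEP, 0.03 as reported, was -0.0083 with normexp, -0.032 with quantile normalization, -0.032 with median centring, -0.030 with the deposited values and -0.066 with cyclic loess; without scaling that of CSN1S2 turned to 0.12 and that of CSN3 to 0.32. Signal over background limits CSN1S1 and CSN1S2 most.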
